A study of Mus musculus with 18 samples.

Results

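Constitutive escape genes are X-linked genes that keep being transcribed from the inactive X chromosome of female cells. The 7 examined here were Kdm5c, Kdm6a, Ddx3x, Eif2s3x, Utp14a, Pbdc1 and 5530601H04Rik, chosen by name as known escape genes, with earlier results of these data known. All 7 had a row among the 40327 genes of the 129 tables, and 6 had one among the 39147 genes of the Cast tables. Kdm6a had no row of that name in the Cast tables, so its inactive X output and its total dosage were not analysed here. Of 1048 X-linked genes that could be matched between the alleles, 6 were members.

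The cells were CD23+ B cells from the spleens of female F1 129S1/Cast mice with genotype Xist+/-, in which, per the labels, inactivation falls on the Cast X in every cell. Both groups shared this genotype, cell type and sex, and no wild-type Xist sample of this cross was used. The naive group (3 samples) had no treatment, and the stimulated group (3 samples) was exposed in vitro to 1 µM CpG, a synthetic DNA ligand of the receptor TLR9 that B cells carry, for 24 h. Ages, and whether each sample came from a separate mouse, are not given in the sources used here, so the p-values cover the spread between these samples, which may be technical. The other 12 samples of the series were not used here. The comparisons asked how much each gene gave from the inactive (Cast) and the active (129) X chromosome, what total dosage resulted, and how CpG moved each allele.

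In female mammals 1 of the X chromosomes of each cell is silenced by Xist RNA, which coats it and brings in repressive chromatin. Escape genes stay active there, usually at a lower level than on the active X, and several of them have a related copy on the Y chromosome. Kdm5c, a demethylase of the histone mark H3K4 methylation, and Kdm6a, a demethylase of H3K27 methylation, are chromatin enzymes. Ddx3x is a DEAD-box RNA helicase of translation, Eif2s3x is the gamma subunit of the initiation factor eIF2, and Utp14a belongs to the small subunit processome that matures ribosomal RNA. 5530601H04Rik is a long noncoding RNA gene and Pbdc1 codes for a small protein.

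On the reference assembly GRCm38.p6 (RefSeq) Ddx3x lies at chrX:13280496-13293988, Kdm6a at chrX:18160862-18279936, Utp14a at chrX:48256934-48282450, Eif2s3x at chrX:94188709-94212651 and Kdm5c at chrX:152233198-152279102. The members are thus spread along the chromosome, except for 5530601H04Rik (chrX:105040854-105070124, minus strand) and Pbdc1 (chrX:105079731-105117094, plus strand). These are transcribed away from each other and leave 9.61 kb between them. The reads were counted on strain annotations without coordinates, so these positions serve only to place the genes.

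The promoters of the 4 members with the highest Cast share are shown because the inactive X gave a larger part of their reads than for Ddx3x and Utp14a. The active X still gave most of the reads of each of the 4 in every sample. Each is the RefSeq window of 250 bases before and 50 bases after the annotated start site, read 5′ to 3′ on the gene's own strand of the C57BL/6J reference, not of either parent strain. Capitals mark the letters AAGATGGC, a YY1 motif, CCGGAAGT, an ETS motif, or TATAAA, letters found in the TATA box of core promoters, on either strand.
Kdm5c (chrX:152232977-152233276, plus strand): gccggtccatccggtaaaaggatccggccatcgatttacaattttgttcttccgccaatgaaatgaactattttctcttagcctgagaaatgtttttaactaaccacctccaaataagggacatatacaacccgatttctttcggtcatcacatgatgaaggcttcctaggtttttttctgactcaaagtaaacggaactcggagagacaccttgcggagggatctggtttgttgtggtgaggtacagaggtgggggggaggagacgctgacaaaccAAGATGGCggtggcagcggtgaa
5530601H04Rik (chrX:105070075-105070374, minus strand): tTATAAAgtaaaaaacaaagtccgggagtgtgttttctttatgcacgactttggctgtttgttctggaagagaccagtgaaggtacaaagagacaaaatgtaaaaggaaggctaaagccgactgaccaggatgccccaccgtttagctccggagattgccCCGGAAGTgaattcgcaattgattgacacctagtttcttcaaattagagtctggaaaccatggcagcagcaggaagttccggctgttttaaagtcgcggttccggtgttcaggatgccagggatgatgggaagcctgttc
Eif2s3x (chrX:94212602-94212901, minus strand): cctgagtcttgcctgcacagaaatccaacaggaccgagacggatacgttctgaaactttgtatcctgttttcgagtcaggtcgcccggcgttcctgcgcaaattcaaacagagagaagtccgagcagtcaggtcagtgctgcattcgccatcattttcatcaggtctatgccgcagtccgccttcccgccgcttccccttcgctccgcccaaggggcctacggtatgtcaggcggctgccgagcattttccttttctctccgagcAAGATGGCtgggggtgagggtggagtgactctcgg
Pbdc1 (chrX:105079506-105079805, plus strand): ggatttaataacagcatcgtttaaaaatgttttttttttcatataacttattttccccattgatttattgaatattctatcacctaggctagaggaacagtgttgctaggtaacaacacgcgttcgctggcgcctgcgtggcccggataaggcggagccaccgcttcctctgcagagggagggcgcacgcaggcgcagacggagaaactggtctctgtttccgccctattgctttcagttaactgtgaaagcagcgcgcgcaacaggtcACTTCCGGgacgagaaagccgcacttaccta
The YY1 letters stood 28 to 35 bases after the start site of Kdm5c and 16 to 23 bases after that of Eif2s3x. The ETS letters stood at bases -90 to -83 from the start site of 5530601H04Rik and at bases 20 to 27 after that of Pbdc1, the latter on the opposite strand. The TATAAA letters of 5530601H04Rik stood at bases -249 to -244, at the far end of the window from the start site. Among 32851 promoter windows of the same length, 2.75% held the YY1 letters, 3.89% the ETS letters and 13.6% the TATAAA letters. The E-box CACGTG, in 7.15% of windows, was found in Kdm6a alone among the 7 members. The windows of Ddx3x and Utp14a held none of the 4 motifs in these exact letters. Near matches, such as the letters tatataag in the window of Ddx3x, were not counted. The motifs were chosen after the sequences had been seen, and they do not overlap one another. The 4 windows hold between 11 (5530601H04Rik) and 21 (Eif2s3x) CG dinucleotides, against a median of 7 over all windows.

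Gene counts summed to between 1987266 and 2928236 reads per sample for the 129 strain, and for the Cast strain they ran from 2465073 to 3321753. Xist, whose RNA marks the inactive X, had a Cast share of 86.4% to 88.9% over the 6 samples, and between 586 and 922 Xist reads per sample were counted on the 129 allele. Where these 129 reads come from was not tested. The rate of reads given to the wrong strain is not known, which limits the reading of small shares below. Autosomal genes had a Cast share of 51.9% to 53.6%. The defining markers of the labelled cell type were present: in naive cells 7 B cell genes summed to between 8080 and 9971 CPM (counts scaled to a common TMM library size, both alleles). All 7 fell with CpG, to a sum of 2830 to 3528 CPM, and Fcer2a, which codes for CD23, was at 387 to 731 CPM in naive and 18.7 to 23.2 CPM in stimulated cells. Markers of red pulp macrophages and myeloid cells were also present in the naive samples, and 10 of 10 fell with CpG, from a sum of 2836 to 6403 CPM to one of 26.9 to 35.7 CPM. The 4 plasma cell genes summed to 238 to 404 CPM in naive and 291 to 331 CPM in stimulated samples (2 of 3 tested rose and 1 fell), and 2 erythroid genes to 32.0 to 72.1 and then 0.598 to 0.821 CPM. The summed CPM of 6 T cell genes went from between 36.4 and 57.3 to between 0.821 and 1.95, and no listed marker was at 0 in all samples. In bulk samples fewer cells of a type and less RNA per cell cannot be told apart, and the part of these other cells in the results below was not tested.

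In naive cells the 6 measurable members gave very unequal shares of their reads from the inactive X. Kdm5c was highest, with a Cast share (Cast reads over 129 and Cast reads) of 35.4% ± 2.14 (SD, n = 3), followed by Eif2s3x at 27.7% ± 0.864, 5530601H04Rik at 25.3% ± 9.10 and Pbdc1 at 20.8% ± 1.36. Ddx3x with 7.73% ± 1.01 and Utp14a with 6.16% ± 2.24 were far lower. The samples of Kdm5c lay above those of Eif2s3x, and those of Pbdc1 above those of Ddx3x, without overlap. Eif2s3x and 5530601H04Rik, 5530601H04Rik and Pbdc1, and Ddx3x and Utp14a overlapped, so their order is not settled by 3 samples. All 6 were above the median of 225 other X-linked genes (2.89% ± 0.658 in naive and 3.00% ± 0.620 in stimulated cells) in each of the 6 samples. The Cast share was thus uneven in size: 2 of 6 members, Ddx3x and Utp14a, stayed under 10% on average. Lying above that median does not by itself set these 2 apart from silenced genes. For 12 genes listed as subject to inactivation, the naive means ran from 0.595% to 23.5%, with a median of 4.49%. G6pdx, on that list, reached 7.08% in a sample, inside the naive range of Utp14a (4.51% to 8.71%). Whether the Cast reads of Ddx3x and Utp14a came from escape or were given to the wrong strain was not tested.

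Expressed as the output of the inactive X per unit of active X output, from edgeR's fit over both alleles, Kdm5c gave 0.549 (95% interval 0.468 to 0.644) in naive cells and 0.600 (0.513 to 0.703) in stimulated cells. Eif2s3x gave 0.383 (0.343 to 0.429) and 0.582 (0.523 to 0.648). Pbdc1 gave 0.263 (0.222 to 0.313) and 0.366 (0.311 to 0.430). For Ddx3x the ratio was 0.0833 (0.0676 to 0.103) and 0.0815 (0.0662 to 0.1004), and for Utp14a 0.0640 (0.0448 to 0.0915) and 0.0921 (0.0660 to 0.129). The long noncoding RNA 5530601H04Rik had a ratio of 0.338 (0.220 to 0.518) in naive and 0.781 (0.528 to 1.15) in stimulated cells, the only one of these intervals to reach 1.

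**Figure D1:**
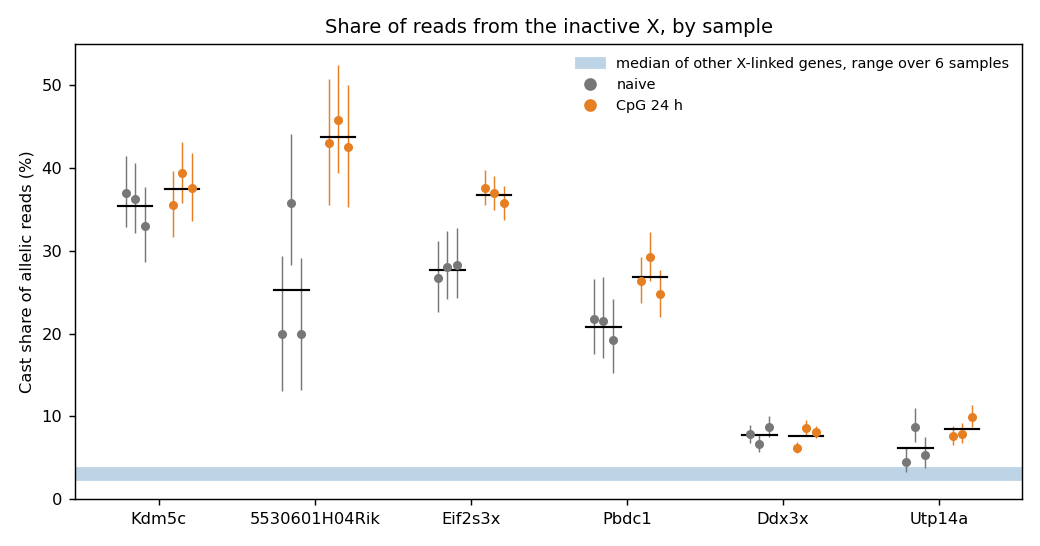
Cast share of allelic reads (%, vertical axis) for 6 escape genes in naive (grey) and CpG-stimulated (orange) samples. Points are samples with 95% Wilson intervals, black lines are group means, and the blue band is the range over 6 samples of the median of 225 other X-linked genes; Eif2s3x, Pbdc1 and 5530601H04Rik have no overlap between groups, while Ddx3x and Utp14a sit under 10% in every sample.

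Eif2s3x, which supplies the subunit of eIF2 that binds GTP and the initiator tRNA, had the largest fold change of the 7 genes on the 129 allele and of the 6 measured on the Cast allele. On the active X the naive replicates gave 299, 325 and 309 reads, against 1205, 1330 and 1301 after CpG. On the inactive X they gave 109, 127 and 122 reads, against 727, 781 and 725 after CpG. All stimulated samples were above all naive samples on both alleles. The 129 allele rose 3.25-fold (95% interval 2.70 to 3.91, adjusted p = 2.74e-05) and the Cast allele 4.92-fold (3.97 to 6.08, adjusted p = 1.64e-06, edgeR quasi-likelihood test with Benjamini-Hochberg adjustment over all genes). The Cast share went from 26.7%, 28.1% and 28.3% to 37.6%, 37.0% and 35.8%, a difference of 9.10 percentage points (two-sided exact permutation p = 0.1, which is the lowest value possible with 3 and 3 samples, and 0.2 adjusted over the 6 members). The share was higher in 3 of 3 same-numbered pairs of samples.

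In the test of unequal change of the alleles, run over 10364 genes, the Cast-to-129 ratio of Eif2s3x rose by a log2 value of 0.60 (SE 0.09, edgeR adjusted p = 0.0406). The other 5 members did not pass: 1 of 6 was called, where 0.917% of all tested genes were called in either direction, 0.482% toward Cast, and 0.727% of 275 X-linked genes. Leaving out any 1 of the 6 samples ended the call, with adjusted p-values of 0.116 when naive replicate 3 was dropped to 0.176 when stimulated replicate 1 was, and so did DESeq2 (adjusted p = 0.0970) and a fit of X-linked genes alone (edgeR adjusted p = 0.659). With 1 sample left out, the size stayed between 0.57, with naive replicate 1 dropped, and 0.63, with stimulated replicate 3 dropped. With each allele scaled to its own autosomal total it was 0.65 (edgeR adjusted p = 0.0488), and without the filter on low counts 0.60 (edgeR adjusted p = 0.0416). Same-numbered samples deviated together, and with the replicate number as a block the edgeR adjusted p was 3.69e-04. That fit also called 5530601H04Rik, so 2 of 6 members passed, where it called 7.52% of all tested genes.

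5530601H04Rik, whose transcript is a noncoding RNA of unsettled function, had few reads and an unequal response. The active X gave 72, 88 and 76 reads in naive and 90, 118 and 96 in stimulated samples, and after scaling the groups overlapped, at 31.0 to 38.1 and 32.4 to 41.8 CPM. The inactive X gave 18, 49 and 19 reads in naive and 68, 100 and 71 in stimulated samples. Naive replicate 2 stood above the other naive samples on the Cast allele, at 17.7 CPM against 6.78 and 8.16 CPM, but under the lowest stimulated value of 21.0 CPM. The log2 change was 0.03 (95% interval -0.41 to 0.46, edgeR adjusted p = 0.907) on the 129 allele and 1.15 (0.33 to 1.97, adjusted p = 0.0205) on the Cast allele. The call on the Cast allele was lost without naive replicate 1, without naive replicate 3 or without stimulated replicate 2 (edgeR adjusted p = 0.0600 to 0.0620), and without naive replicate 2 the log2 change was 1.73. Its Cast share went from 18 of 90, 49 of 137 and 19 of 95 reads to 68 of 158, 100 of 218 and 71 of 167 reads, an increase of 18.6 percentage points, with no overlap (exact permutation p = 0.1, two-sided; 0.2 adjusted over the members). The change of the ratio, 1.21 in log2 (SE 0.35), did not pass without the block (edgeR adjusted p = 0.221) and passed with it (1.18, adjusted p = 0.00488).

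Pbdc1, its neighbour, rose on both alleles. The 129 allele had 249, 215 and 239 naive and 728, 632 and 668 stimulated reads, and the Cast allele 69, 59 and 57 naive and 261, 261 and 220 stimulated reads. The stimulated samples were above the naive samples on each allele. The rise was 2.27-fold (95% interval 1.81 to 2.86) on the 129 and 3.17-fold (2.44 to 4.12) on the Cast allele, with edgeR adjusted p-values of 3.35e-04 and 2.64e-05. The Cast share moved from 19.3% to 21.7% in naive to 24.8% to 29.2% in stimulated samples (exact permutation p = 0.1, two-sided). The log2 change of the ratio was 0.47 (95% interval 0.14 to 0.81) and did not pass (edgeR adjusted p = 0.230).

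Ddx3x, the helicase, had the most reads of the 7 genes and rose on both alleles. Its 129 reads numbered 2135, 1942 and 1682 in naive and 4596, 3580 and 4521 in stimulated samples. Its Cast reads numbered 181, 139 and 160 in naive and 301, 338 and 395 in stimulated samples. Such counts limit counting error but not reads given to the wrong strain, which were not measured. The rise was 1.75-fold (95% interval 1.41 to 2.17, edgeR adjusted p = 0.00159) on the 129 and 1.69-fold (1.31 to 2.18, adjusted p = 0.00272) on the Cast allele. The log2 change of the ratio was -0.03, with a 95% interval of -0.43 to 0.36. The autosomal gene D1Pas1, a close copy of Ddx3x, had 0 reads in every sample on either allele, and the tables held no row for the Y-linked relatives Ddx3y, Eif2s3y, Kdm5d and Uty.

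Utp14a, the processome gene, rose 2.21-fold (95% interval 1.85 to 2.63) on the 129 and 3.08-fold (2.10 to 4.53) on the Cast allele, with edgeR adjusted p-values of 1.15e-04 and 3.52e-04. The Cast allele gave 32, 60 and 29 reads in naive and 148, 140 and 181 in stimulated samples, against 677, 629 and 523 and then 1798, 1637 and 1638 on the 129 allele. Both alleles were higher in each stimulated sample than in any naive sample. The Cast share nevertheless overlapped between groups, because naive replicate 2 was at 8.71% while the stimulated samples were at 7.61%, 7.88% and 9.95%. The log2 change of the ratio was 0.52 (95% interval -0.13 to 1.18, edgeR adjusted p = 0.563). Without naive replicate 2 it was 0.84, and without naive replicate 1 it was 0.31. Its autosomal relative Utp14b rose as well, by 1.67 in log2 for both alleles summed (edgeR adjusted p = 1.82e-05), and how reads shared by close copies were counted is not given in the sources used here.

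The chromatin enzymes did not pass in any of these tests. Kdm5c had 301, 309 and 276 naive and 346, 408 and 332 stimulated reads on the 129 allele, and 177, 176 and 136 naive and 191, 265 and 200 stimulated reads on the Cast allele. The groups overlapped on each allele once scaled by library size. The log2 change was -0.04 (95% interval -0.33 to 0.25) on the 129 and 0.09 (-0.28 to 0.46) on the Cast allele, with edgeR adjusted p-values of 0.796 and 0.645. After CpG its Cast share was 37.5% ± 1.91 (SD, n = 3), 2.07 points above the naive mean, and the samples overlapped. Kdm6a, measured on the active X alone, had 630, 654 and 527 naive and 672, 611 and 650 stimulated reads. After scaling it was at 264 to 272 CPM in naive and 217 to 242 CPM in stimulated samples. The groups did not overlap, but the log2 change of -0.24 (95% interval -0.47 to -0.01) missed the threshold (edgeR adjusted p = 0.0757).

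**Figure D2:**
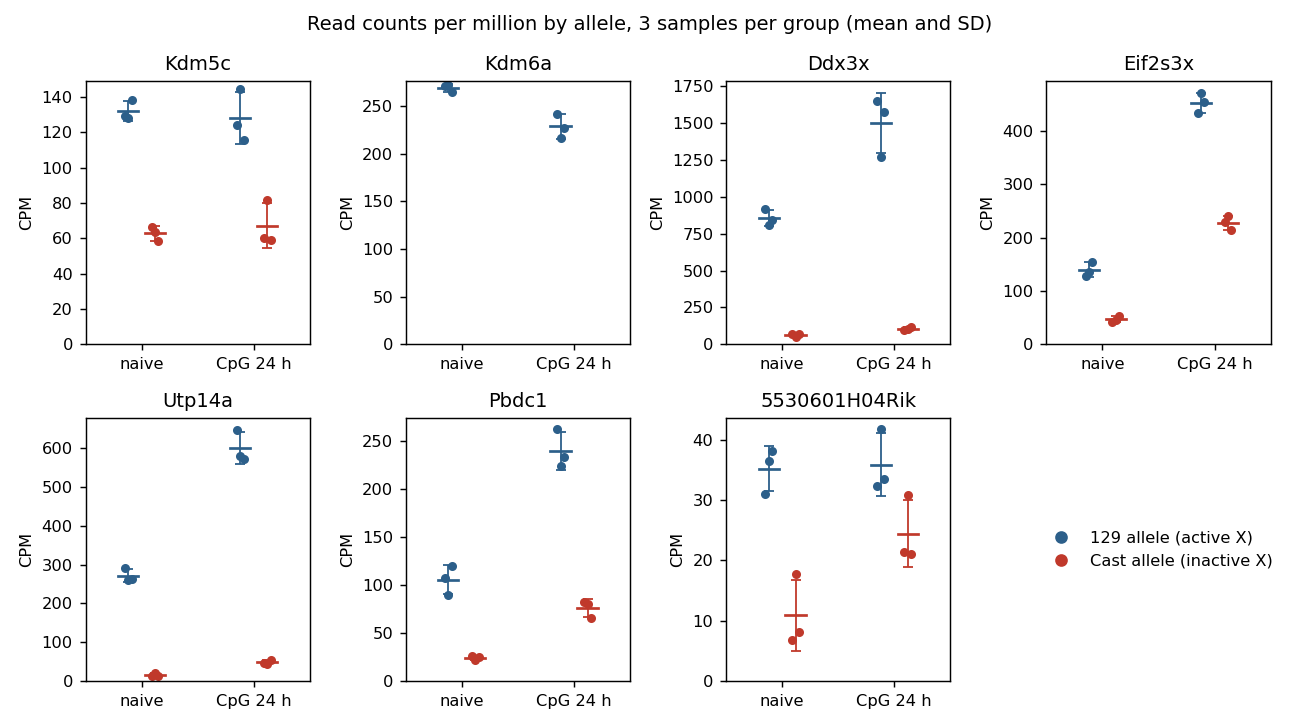
Scaled counts (CPM, vertical axis of each panel, own scale from 0) of the 129 allele (blue) and the Cast allele (red) in naive and CpG-stimulated samples; points are 3 samples per group, bars the mean and SD. Both alleles of Ddx3x, Eif2s3x, Utp14a and Pbdc1 are higher in all stimulated samples, 5530601H04Rik is higher on the Cast allele alone, and Kdm6a has a 129 row only.

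In count, 4 of 7 members were called higher and 0 lower on the 129 allele, where 28.2% of all 10581 tested genes were called higher and 55.2% were called in either direction (35.1% higher and 58.5% in either direction among 316 X-linked genes). On the Cast allele 5 of 6 were called higher and 0 lower, against 30.7% of 10365 genes higher and 62.2% in either direction, or 45.8% and 56.2% of the 96 X-linked genes tested there. The sample groups did not overlap for 4 of 7 members higher and 1 of 7 lower on the 129 allele, beside 32.6% of genes higher and 64.8% in either direction. On the Cast allele they did not overlap for 5 of 6, all higher, beside 33.7% higher and 68.5% in either direction. All 7 and all 6 passed the filter on low counts. The median log2 change of the members was 0.81 on the 129 and 1.39 on the Cast allele, beside -0.01 and -0.04 over all tested genes. The mean Cast share was higher in stimulated cells for 5 of 6 members and for 122 of 225 other X-linked genes. The groups did not overlap, with the stimulated samples higher, for 3 of 6 members, beside 8.66% of 231 X-linked genes including them.

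**Figure D3:**
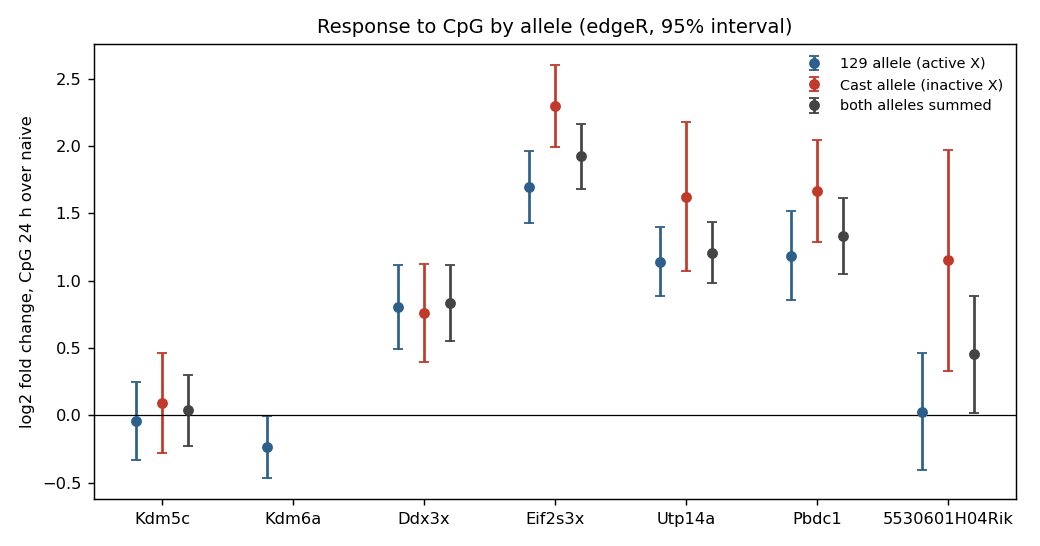
Log2 fold change of stimulated over naive cells (vertical axis) with 95% intervals from edgeR for the 129 allele (blue), the Cast allele (red) and both alleles summed (grey), 3 samples per group. The intervals of Eif2s3x lie highest on all 3 scales, those of Kdm5c include 0, and those of 5530601H04Rik differ most between the alleles.

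Total dosage, the sum of both alleles, rose for 4 of 6 members, where 34.2% of 10343 tested genes rose and 68.7% changed in either direction (37.0% and 64.1% of 270 X-linked genes). The groups did not overlap for 5 of 6 members, all higher, beside 36.8% of genes higher and 73.8% in either direction. Eif2s3x rose from 107 to 404 CPM, by a log2 value of 1.92 (SE 0.11, edgeR adjusted p = 5.19e-07). Pbdc1 rose by 1.33 (SE 0.12), Utp14a by 1.21 (SE 0.10) and Ddx3x by 0.84 (SE 0.12). Of the rise in summed CPM, the inactive X gave 40.0% for Eif2s3x, 30.8% for Pbdc1, 10.2% for Utp14a and 7.21% for Ddx3x. The sum of 5530601H04Rik, 0.45 higher in log2 (SE 0.19), missed the threshold (edgeR adjusted p = 0.0598) and passed it with the replicate block (0.0214). It passed also without naive replicate 2 (edgeR adjusted p = 0.0263) and without the filter on low counts (edgeR adjusted p = 0.0351). The sum of Kdm5c changed by 0.04 (95% interval -0.22 to 0.30). As part of the reads of the 1048 X-linked genes matched between the alleles, the 6 members together took 6.01% ± 0.635 in naive and 12.5% ± 1.37 in stimulated cells on the Cast allele. On the 129 allele they took, of the same 1048 genes, 5.53% ± 0.162 and 10.2% ± 0.761 (SD, n = 3). Both totals include Xist, which weighs far more on the Cast allele. It gave 4613 to 6473 Cast reads per naive sample and 5661 to 6930 per stimulated sample, against 586 to 922 on the 129 allele. The percentages of the 2 alleles therefore cannot be set against each other, and they were not computed without Xist.

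The authors' deposited table of escape genes lists 6 members among its 104 genes and leaves out Kdm6a. Per length and over both alleles, the authors' deposited mean RPKM put Ddx3x first at 178 in naive and 308 in stimulated cells. In the authors' deposited table Utp14a followed with 65.1 and 145, Eif2s3x with 48.6 and 177, Kdm5c with 27.1 and 26.96, Pbdc1 with 21.0 and 50.8, and 5530601H04Rik with 5.12 and 6.63. So Eif2s3x passed Utp14a, and Pbdc1 passed Kdm5c, in the means of stimulated cells. The table holds no replicates, so these orders carry no error.

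The authors' deposited SRPM, an allele value that equals 10000000 times the reads of a gene divided by all gene reads of that strain in each of 24 member values recomputed here, was given for the alleles separately. For Eif2s3x the authors' deposited mean SRPM of the inactive X was 457 in naive and 2288 in stimulated cells, and that of the active X 1397 and 4461. For 5530601H04Rik the authors' deposited values were 108 and 244 on the inactive X and 353 and 353 on the active X. The authors' deposited ratio of inactive to active X was 0.327 and 0.513 for Eif2s3x, 0.308 and 0.692 for 5530601H04Rik, 0.223 and 0.322 for Pbdc1 and 0.469 and 0.531 for Kdm5c, in naive and stimulated cells. It was 0.0715 and 0.0714 for Ddx3x and 0.0563 and 0.0813 for Utp14a in the authors' deposited table. These ratios are lower than those of the counts given above because the divisor differs by strain, and the gene reads of the Cast strain were the larger in each of the 6 samples. By the authors' deposited ratio in stimulated cells, 5530601H04Rik ranked 5, Kdm5c 7, Eif2s3x 8, Pbdc1 13, Utp14a 36 and Ddx3x 40 of 104 genes.

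Genes beside the members mostly gave little from the inactive X. Of the nearest expressed genes on either side, Klhl15, 19.6 kb from Eif2s3x, was at a Cast share of 2.95% ± 1.44 before and 1.33% ± 2.31 after CpG (SD, n = 3). Smc1a, a cohesin gene 171 kb from Kdm5c, had 3.37% ± 2.57 and 2.63% ± 0.944. Elf4 and Zdhhc9 on the sides of Utp14a had naive shares of 3.55% ± 0.695 and 4.17% ± 7.22, the latter on 19 to 59 reads. Tspyl2, on the other side of Kdm5c, varied from sample to sample (13.3% ± 13.0 in naive cells), so no level can be given. Atrx, a chromatin remodeler 681 kb from Pbdc1 and listed here as subject to inactivation, had 23.5% ± 2.17 and 23.7% ± 0.979. Over the 30 expressed genes within 1000 kb of a member the median share was 3.16% before and 2.54% after CpG, and the highest was that of Rbmx2.

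**Figure D4:**
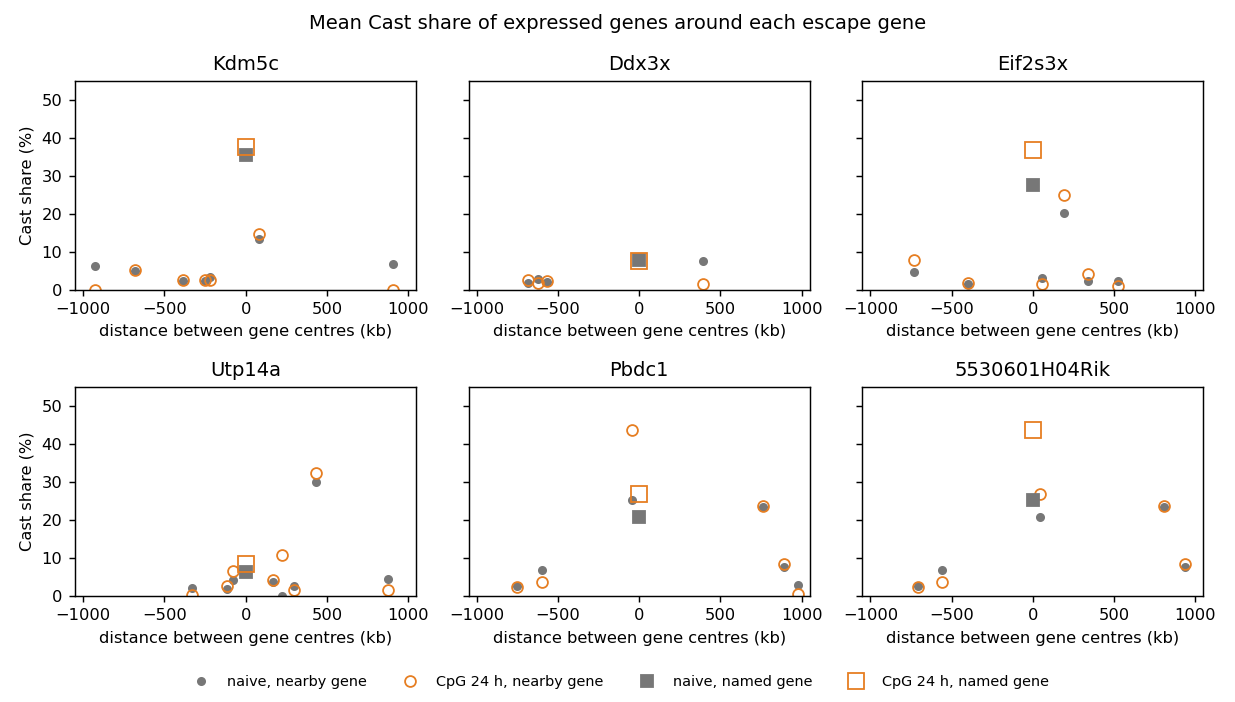
Mean Cast share (%, vertical axis) of expressed genes against the distance between gene centres (kb, horizontal axis) around each of 6 escape genes, in naive (filled grey) and stimulated (open orange) cells; squares are the named gene, circles its surroundings. Most surrounding genes lie near the floor of the plot, and Rbmx2 near Utp14a, Atrx near Pbdc1 and Apoo near Eif2s3x stand above it.

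By the likeness of their mean Cast shares in both groups to the medians of the members (23.04% and 31.8%), the closest of 179 other X-linked genes with at least 30 reads per sample were Rbmx2 (29.9% ± 2.69 and 32.2% ± 4.08), Atrx, Jpx (11.1% ± 3.93 and 31.5% ± 0.990), Las1l (15.7% ± 8.57 and 23.2% ± 5.73) and Tmsb4x (13.1% ± 4.49 and 24.5% ± 5.93; SD, n = 3). Among the 231 X-linked genes that reached 10 reads per sample, Kdm5c ranked 4, 5530601H04Rik 6, Eif2s3x 7, Pbdc1 10, Ddx3x 42 and Utp14a 44 by mean Cast share. Of 14 genes listed as subject to inactivation, 12 were matched between the alleles and reached 10 reads in every sample. Their mean naive shares ran from 0.595% (Med12) to 23.5% (Atrx), with a median of 4.49%. Hprt, the purine salvage enzyme, was at 4.53% ± 1.10 and 3.75% ± 1.70. Ftx, a noncoding gene next to Xist and another reported escape gene, was at 9.28% ± 4.66 before and 22.00% ± 3.88 after CpG. Of 5 tested genes of the list of other reported escape genes, 2 rose and 1 fell for both alleles summed (median log2 change 0.29). Car5b rose by 2.35 and 1810030O07Rik by 0.29, while Ftx fell by 0.60. Car5b had only 1 to 16 reads per sample over both alleles, and its Cast share was 0 in every sample. The mean Cast share of 1810030O07Rik was 2.88% before and 1.69% after CpG, beside medians of 2.89% and 3.00% for other X-linked genes. Of 12 tested genes listed as subject to inactivation, 7 rose and 3 fell (median 0.52; 37.0% of tested X-linked genes rose and 64.1% were called in either direction), among them Hprt with 1.56 and Phf6 with 0.94, while Med12 fell by 1.04.

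A list of 12 genes held genes of eIF2, of its exchange factor eIF2B and of the kinases that act on eIF2, and Eif5. Of the 12, 10 rose and 1 fell for both alleles summed, with a median log2 change of 0.73 beside -0.01 over all tested genes. Eif2s1, the alpha subunit, rose by 2.26 (SE 0.13), from 25.1 ± 3.09 to 121 ± 9.02 CPM (SD, n = 3). Eif2s2, the beta subunit, named after its values were seen, rose by 1.43 (SE 0.19) and Eif2b1 by 1.58 (SE 0.10). Eif2ak3, the kinase PERK, fell by 1.60 (SE 0.10). Each of these had an edgeR adjusted p under the 0.05 threshold, and among all tested genes 68.7% were called in either direction.

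Of the processome genes listed, 34 of 34 rose for both alleles summed, 31 of 34 on the 129 and 33 of 34 on the Cast allele, and 0 fell. Over all tested genes 34.2% were called higher for the sum, 28.2% on the 129 and 30.7% on the Cast allele. Their median log2 change was 1.48, above the 1.21 of Utp14a. Fbl, the methyltransferase fibrillarin, rose by 2.18 (SE 0.19) and Rrp9 by 2.18 (SE 0.20). Among the DEAD-box helicases, 7 of 10 tested rose and 3 fell, with a median of 1.17, beside 34.2% higher and 68.7% in either direction over all tested genes. Ddx1 rose by 2.53 (SE 0.12) and Ddx39, listed under its other symbol Ddx39a, by 2.35 (SE 0.09), while Ddx17 fell by 0.42 and Eif4a2, an initiation factor, fell by 0.31.

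Of 6 other histone demethylases 1 rose and 3 fell, with a median log2 change of -0.31, where 34.2% of all tested genes rose and 68.7% were called in either direction, so that the share called is near that of all genes. Kdm6b, the autosomal relative of Kdm6a, fell by 2.47 (SE 0.23), from 26.1 ± 3.04 to 4.67 ± 0.673 CPM (SD, n = 3). Kdm5b, the relative of Kdm5c, fell by 2.03 (SE 0.17), and Kdm2b rose by 1.00 (SE 0.10). Of 8 tested genes of the MLL3/MLL4 complex, which carries Kdm6a, 5 rose and 2 fell, with a median of 0.45, beside the same 34.2% higher and 68.7% in either direction over all tested genes. Dpy30 rose by 1.80 (SE 0.16) and Paxip1 by 1.18 (SE 0.19), while the catalytic subunits Kmt2d and Kmt2c fell by 1.65 (SE 0.21) and 1.46 (SE 0.13). All of these passed edgeR's adjusted threshold of 0.05.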

How the data were processed

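Total RNA of 6 samples was measured by sequencing (TruSeq Stranded Total RNA libraries, per the labels' protocols), with a read count table per sample for each parent strain. The deposited counts are whole numbers with no normalization, per the file headers and values. The submitters' processing notes name STAR, featureCounts, Subread 2.0.0 and the build mm10 without roles. The rule for giving a read to a strain, the read filters and the strand setting are not given in the sources used here. A gene's allelic counts thus depend on how many reads cover bases that differ between the strains, which affects levels of an allele between genes. The change of 1 gene between groups is free of this only if the same bases are covered in both groups, which was not tested. The deposited RPKM (a mean over both alleles), SRPM and ratio columns are group means made by the authors, per the file headers, with no error or n.

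Rows of reads in no gene stayed out of totals and tests. Of gene, no-gene and ambiguous reads together, they made up 62.6% to 67.1% in naive and 48.1% to 56.7% in stimulated samples of the 129 tables. In the Cast tables they made up 57.9% to 62.1% and 44.5% to 52.3%. The groups thus did not overlap, and what this does to the results was not tested. Genes without a name took 5.10% to 7.59% of gene reads in the 129 tables and 14.4% to 19.7% in the Cast tables. Alleles were matched by a name used once in each strain and by chromosome (28374 genes).

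The tests used edgeR 4.0.16 in R 4.3.3 (quasi-likelihood, robust, TMM, filterByExpr, Benjamini-Hochberg threshold 0.05) on each strain's counts, on their sum, and on the allele ratio with a term per sample and genes of at least 10 reads in at least 3 samples. Standard errors came from the F statistic. Wilson intervals (95%) treat the reads of a sample as independent and leave out the spread between samples. PCR copies of a molecule cannot be told apart here, so the intervals may be too narrow even for counting error. Shares were compared by exact permutation (SciPy 1.17.1), which with 3 against 3 samples cannot go below 0.1. The scripts were tested on simulated data. Alternatives were DESeq2 1.42.0, no filter, no TMM, other scalings, a replicate block and leaving out each sample.

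Samples with the same replicate number deviated together from their group means, with correlations of 0.443 to 0.608 (129), 0.163 to 0.246 (Cast), 0.155 to 0.206 (sum) and 0.432 to 0.526 (ratio) across genes. The numbers come from the sample titles, and no source says what a number stands for.

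The members and gene lists were chosen with earlier results of these data known. Named genes were the members, up to 2 rises and 2 falls per list, the nearest expressed neighbours and the 5 genes of closest Cast share. A gene that this rule names is not reported here. The list name 2610029G23Rik is an older name of Pbdc1 and was dropped.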

Additional observations from a re-analysis of the deposited data

Results flagged for a closer look

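The Cast-to-129 ratio of Eif2s3x was higher with CpG by 0.60 on the log2 scale, and the test of the difference between the alleles' responses passed (edgeR adjusted p = 0.0406). The call was lost with DESeq2 (adjusted p = 0.0970), with X-linked genes alone (edgeR adjusted p = 0.659) and with any 1 of the 6 samples left out (edgeR adjusted p = 0.116 to 0.176), and it held with the replicate block (edgeR adjusted p = 3.69e-04). The Cast share was higher in 3 of 3 stimulated samples than in any naive sample.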

How the results depend on the processing

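Among single members, 66 of 70 values on the 129 allele, 56 of 60 on the Cast allele, 56 of 60 for the sum and 54 of 66 for the ratio kept their direction and their side of the threshold under the alternatives. With 1 sample left out, the number of members called was 4 to 4 on the 129 allele, 4 to 5 on the Cast allele and 4 to 5 for the sum, and the rise of the median member share was 8.62 to 11.2 percentage points.

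For the change of the Cast-to-129 ratio 1 member was called as reported, 0 with DESeq2, 0 with X-linked genes alone, 2 with the replicate block and 0 to 0 with 1 sample left out (edgeR; unadjusted p was under 0.05 for 3 of 6 members in the reported fit). Genes called there numbered 95 as reported, 779 with the replicate block, 0 with X-linked genes alone and 14 to 26 with 1 sample left out. The cause was not tested.

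Values that changed sign were near 0 throughout and had passed no test. The 129 log2 change of 5530601H04Rik was -0.0009 without TMM factors and ran from -0.1034 to 0.1084 with 1 sample left out. Kdm5c ran from -0.1444 to 0.0307 on the 129 allele, from -0.0526 to 0.1962 on the Cast allele and from -0.0911 to 0.1125 for the sum. The ratio change of Ddx3x was 0.0155 with each allele scaled to its own autosomal total and ran from -0.1404 to 0.1243 with 1 sample left out. Other calls that the replicate block changed are given with their genes. Depth limits 5530601H04Rik most, with 18 to 100 Cast reads per sample.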
